A study of Mus musculus with 6 samples.

Results

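The interferon regulatory factor genes Irf1, Irf2, Irf3, Irf4, Irf5, Irf7 and Irf9, were followed across the immune cells of the ventral midbrain in a mouse model of Parkinson's disease. They were taken by gene symbol, 7 of the 32285 genes in the deposited matrices, and all 7 were found in each of the 4 libraries. Line 61 mice carry full-length human α-Syn under the Thy1 promoter, which is active mainly in neurons, and only transgenic males were used, 12 to 15 weeks old at injection. The mice received bilateral injections into the striatum of PBS, of monomer (soluble human α-Syn) or of PFF (preformed fibrils of human α-Syn), and CD45+ cells were sorted 6 weeks later from pools of 3 to 5 midbrains. From 2 weeks after injection, the PFF groups were given either AZD1480, an inhibitor of the kinases JAK1 and JAK2, at 25 mg/kg by gavage every day for 4 weeks, or VH, a vehicle of 0.1% DMSO. The sources used here give no dosing for the PBS and monomer groups.

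Each group is 1 library, so that group and library cannot be told apart. In the library of PFF + VH, 4 hashtags were counted as well, and 5 in that of PFF + AZD1480. These are antibody tags that tell pooled samples apart, and hashtags are treated here as replicates, although the sources do not say what each one was. Tests were therefore possible only between or within the hashtags of these libraries. The libraries hold 99658216 to 116440449 UMIs (unique transcript molecules), but PFF + VH spreads them over 34436 cells with a median of 2306 UMIs, against 13021 to 15031 cells with medians of 6616 to 7028 in the others. Between 237 and 434 cell barcodes of a library also occur in another.

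Interferon regulatory factors are transcription factors with a shared DNA-binding domain that reads the GAAA repeats of interferon-stimulated response elements. Irf3, Irf5 and Irf7 lie dormant until pattern sensors of viral or bacterial molecules switch them on, and then start interferon and cytokine genes, while Irf9 joins STAT proteins in the complex that carries the type I interferon signal from the receptor and its JAK kinases to the nucleus. Irf1 and Irf2 bind the same elements as activator and antagonist, and Irf4 steers the differentiation of lymphocytes and of some myeloid cells. In microglia, the resident macrophages of the brain, a small fraction of cells with high interferon-stimulated genes is known from many conditions.

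The 7 genes lie on 6 chromosomes of the GRCm38 (mm10) build. Irf1 is at chr11:53770014-53778374, Irf2 at chr8:46739732-46847458, Irf4 at chr13:30749226-30766976, Irf5 at chr6:29526625-29541871 and Irf9 at chr14:55603571-55610030, all on the plus strand. Irf3 at chr7:44997648-45002848 (plus strand) and Irf7 at chr7:141262706-141266481 (minus strand) share a chromosome. The last bases of Rnf31 overlap the first bases of Irf9 on the same strand over 123 bp, where reads of the 2 genes cannot be told apart. Irf1, Irf2, Irf3, Irf5 and Irf7 overlap genes on the opposite strand.

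Because AZD1480 acts on the kinases upstream of STAT proteins, the 250 bases before each RefSeq transcription start (GRCm38.p6) were searched on both strands for a STAT dimer site, TTCNNNGAA, and for an interferon-stimulated response element, GAAANNGAAA. Among all 32851 promoters, 7.02% hold the first motif and 2.98% the second. Only the windows of Irf1 and Irf2 matched, and the matches are shown in capitals. The RefSeq start can differ from the start of the gene given above, as it does for Irf2. For Irf9 both RefSeq starts lie downstream of that start, so that the bases just before it were not searched.

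Irf1, STAT site starting 90 bases before the RefSeq start, chr11:53769894-53769962, plus strand: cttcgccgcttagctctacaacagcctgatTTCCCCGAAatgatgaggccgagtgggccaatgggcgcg

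Irf2, response element starting 241 bases before the RefSeq start, chr8:46739495-46739543, plus strand: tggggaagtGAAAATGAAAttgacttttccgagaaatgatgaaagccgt

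Irf2, STAT site starting 224 bases before the RefSeq start, chr8:46739495-46739559, plus strand: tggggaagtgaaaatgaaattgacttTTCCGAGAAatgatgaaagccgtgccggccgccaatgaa

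These letters were not found in the windows of Irf3, Irf4, Irf5, Irf7 and Irf9, which says nothing about the binding of a factor there.

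Cells were assigned to classes by markers that include no Irf gene. Microglia (MG) made up 11871 to 32380 cells of a library, and border macrophages, monocytes and dendritic cells together (MM) 304 to 542. All MG markers were detected in MG, with a summed level of 15913 to 18976 CPM (counts of a gene scaled to a common total of counts per class). In the T and NK cells, the same MG markers summed to 1332 CPM after PBS, 1162 after monomer, 4053 after PFF + VH and 2323 after PFF + AZD1480, so that these markers were highest in the lymphocytes of PFF + VH. What this adds to the Irf levels of the rarer classes was not tested.

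The classes differed most in Irf4, Irf5 and Irf7. Irf4 was highest in B cells and listed at 0 in the neutrophils of every library, Irf5 was high in monocytes, MG and border macrophages and low in T cells and neutrophils, and Irf7 was highest in monocytes and lowest in MG. Values are CPM of the summed cells of a class, as the median and range over the 4 libraries, with no test.

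**Figure D1:**
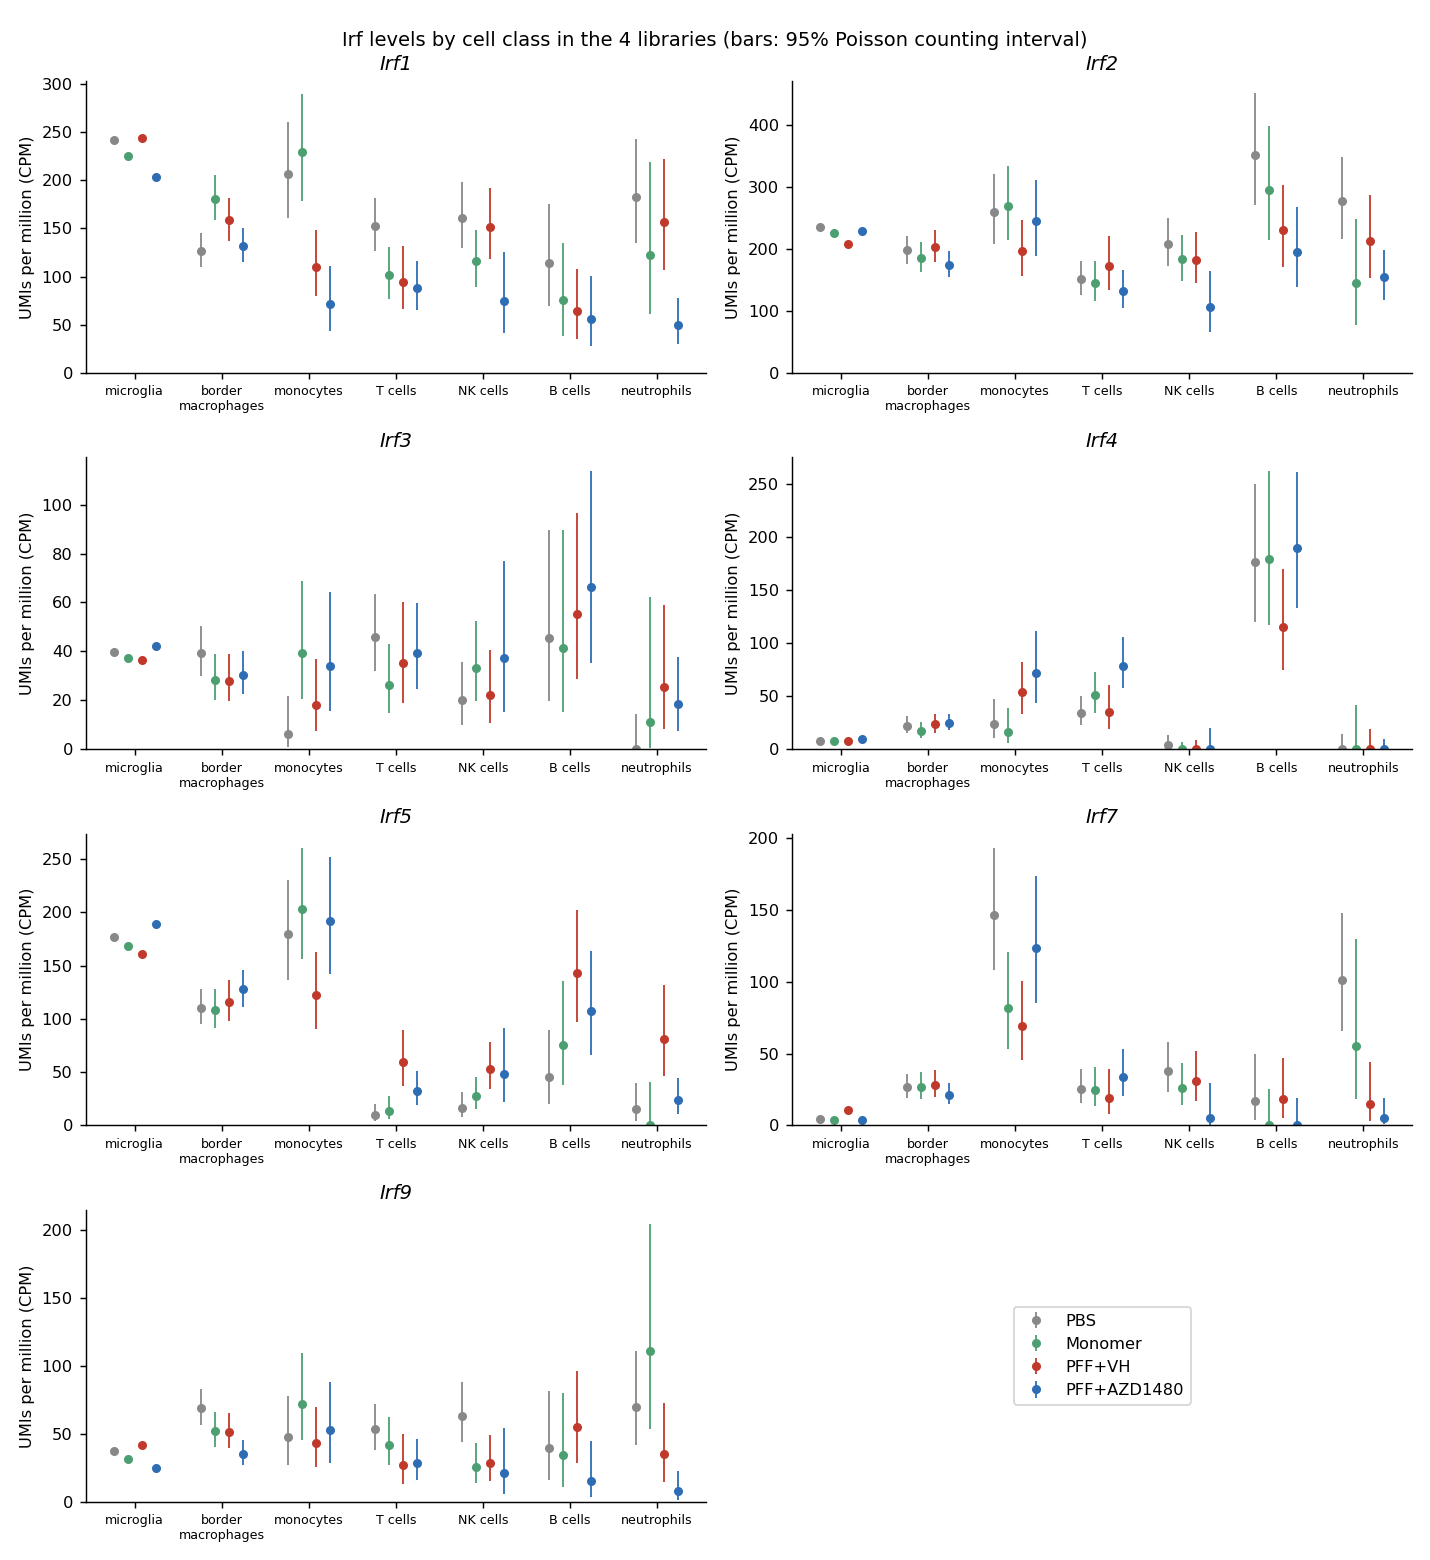
Level of each Irf gene (y axis, CPM) in 7 cell classes (x axis) of the 4 libraries, 1 point per library with its 95% Poisson interval, which covers counting error only. Irf4 peaks in B cells, at 115 to 189 CPM, and Irf7 in monocytes, at 69.1 to 146 CPM.

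Irf9, the DNA-binding subunit of the type I interferon complex, did not set any class apart from its neighbours. Its medians ran from 52.7 CPM in neutrophils, 51.5 in border macrophages and 50.2 in monocytes through 37.0 in B cells, 35.2 in T cells and 34.2 in MG to 27.2 in NK cells, and the ranges of all neighbours overlapped. Irf7, the interferon-inducible amplifier of the response, had a median of 103 CPM (69.1 to 146) in monocytes and 4.30 CPM (3.92 to 10.99) in MG. Neutrophils (35.4 CPM), NK cells (28.3), border macrophages (26.6) and T cells (24.9) lay between with overlapping ranges, and only the range of T cells was clear of the next class, B cells, in which 7 counts were found in all. Single cells weigh on these small classes, since 27 of the 33 Irf7 counts in the monocytes of PFF + AZD1480 came from 1 cell, without which the level is 23.7 CPM.

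Irf1, the activator induced by interferon-γ, had its highest median in MG, at 233 CPM (203 to 244). Its median was 158 CPM in monocytes, whose range (71.3 to 230) overlapped that of MG, and 145 in border macrophages, and was lowest in B cells, at 70.02. Its antagonist Irf2 was more even, with medians from 148 CPM in T cells to 263 in B cells and 227 (207 to 234) in MG, and the only neighbours whose ranges did not overlap were MG and border macrophages (191 CPM).

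Irf3, the constitutively made factor that TBK1 phosphorylates after RNA or DNA sensing, stood at 38.5 CPM in MG (36.5 to 42.1), 50.3 in B cells and 37.2 in T cells, and the ranges of all neighbours overlapped. Irf5, which works below Toll-like receptors and MyD88, had medians of 185 CPM in monocytes, 172 (161 to 189) in MG and 113 in border macrophages, against 23.1 in T cells and 19.5 (0 to 81.0) in neutrophils. In T cells it measured 10.2 CPM after PBS and 13.9 after monomer but 59.4 after PFF + VH and 32.2 after PFF + AZD1480. The MG markers in these lymphocytes were likewise higher in the PFF libraries than in the others, and highest in PFF + VH.

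Irf4 was at 177 CPM in B cells (115 to 189), clear of T cells (42.8), whose range overlapped that of monocytes (38.8), as monocytes did that of border macrophages (22.6). MG were below all of these, at 7.78 (7.58 to 9.10). NK cells held 2 Irf4 counts in all. Neutrophils held none in 201 cells, and a count of 0 allows up to 7.81 to 33.4 CPM in their libraries (3 counts, counting error only). In the 67 dendritic cells of the 4 libraries together, Irf4 reached 75.6 CPM (Poisson interval 52.6 to 105) and Irf5 207 CPM (168 to 253), while Irf7 rested on 6 counts.

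Border macrophages made up 428 of the 542 MM of the PFF + VH library and 357 of the 413 of PFF + AZD1480. MG were compared with MM and with T and NK cells of the same hashtags. Irf1 and Irf5 were higher in MG than in both, and the fits gave lower Irf4 and Irf7 in MG than in both, although Irf4 was higher in the lymphocytes of only 4 of 9 hashtags. Against MM, 5 of the 7 genes passed the test (quasi-likelihood test of edgeR over all genes, p-values adjusted by Benjamini-Hochberg, 9 hashtags), where 37.5% of the 13459 genes tested did. Irf1 was 1.10 higher in MG on the log2 scale (SE 0.12, adjusted p = 8.36e-11) and Irf5 0.39 higher (SE 0.12, adjusted p = 0.00529). Irf4 differed by -2.18 (SE 0.24, adjusted p = 8.59e-11) and Irf7 by -2.14 (SE 0.27, adjusted p = 2.83e-09). Both were higher in MM than in MG in nearly every hashtag, Irf4 in 5 of 5 of PFF + AZD1480 and 4 of 4 of PFF + VH, Irf7 in 4 of 5 and 4 of 4. Irf9 differed by -0.44 (SE 0.17, adjusted p = 0.0404), a call that was lost in 7 of 17 alternative analyses. Irf2 (0.27, adjusted p = 0.0535) and Irf3 (0.36, adjusted p = 0.114) did not pass. The median of all genes in this comparison was 0.11, so that the smaller differences lie near it.

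Against T and NK cells, 6 of the 7 genes passed, where 46% of 12814 genes did and the median of all genes was 0.33. Irf5 was 2.63 higher in MG (SE 0.27, adjusted p = 8.73e-22), Irf1 1.42 (SE 0.21, adjusted p = 2.54e-10) and Irf2 0.98 (SE 0.20, adjusted p = 7.23e-06). In every one of the 9 hashtags, Irf5 was lower in the lymphocytes. Irf4 differed by -1.72 (SE 0.34, adjusted p = 3.25e-06) and Irf7 by -1.63 (SE 0.38, adjusted p = 7.17e-05). By hashtag, Irf4 was higher in the lymphocytes than in MG in 1 of 4 hashtags of PFF + VH and 3 of 5 of PFF + AZD1480, and was at 0 in 4 of the others. Irf7 was higher in 3 of 4 and 3 of 5. Some of these hashtags held as few as 3 T and NK cells, and with only the 5 that held at least 20, an alternative added later, Irf4 differed by -1.38 (adjusted p = 0.0151) and Irf7 by -1.22 (adjusted p = 0.02). In the lymphocytes of these 5, Irf4 was at 0, 0, 25.5 and 6.50 CPM in PFF + VH and at 103 CPM, from 16 counts, in hashtag 4 of PFF + AZD1480. Their MG were at 7.01 to 9.06 CPM. Irf9 passed at 0.76 (SE 0.33, adjusted p = 0.0446) but lost the call in 9 of 17 alternatives, and Irf3 did not pass (0.52, adjusted p = 0.134). Against its fitted direction, Irf9 was higher in the lymphocytes than in MG in 1 of 4 hashtags of PFF + VH and 3 of 5 of PFF + AZD1480.

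Among the related genes, Irf8, a factor that microglia need for their development, was higher in MG than in MM (0.64, adjusted p = 9.01e-06) and than in lymphocytes (1.83, adjusted p = 1.50e-16). Of 18 interferon-stimulated targets tested, 1 was higher and 16 were lower in MG than in MM, led by Ifitm3 (-3.71) and Ifi204 (-3.04), with a list median of -1.57 against 0.11 for all genes. Against lymphocytes, 5 of the 18 were higher and 1 lower in MG, with a list median of 0.31 against 0.33 for all genes. Ciita, the master regulator of MHC class II, had a log2 difference of -5.53 between MG and MM. Of the sensors, adaptors and kinases upstream of Irf3, Irf5 and Irf7, 8 of 18 were higher and 1 lower in MG than in MM, Tlr3 (1.59) and Traf3 (1.57) among the higher, and 15 of 18 were higher and 2 lower than in lymphocytes. Of all genes, 37.5% and 46% were called in these comparisons, in either direction. Interferon-γ itself (Ifng) was lower in MG than in lymphocytes, with a log2 difference of -7.41.

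AZD1480 was compared with VH in MG of PFF-injected mice. The hashtags of VH and of AZD1480 are in different libraries, so that treatment and library cannot be told apart. The p-values do not cover differences between libraries. Irf7 and Irf9 were lower with AZD1480, Irf2 and Irf5 were slightly higher, and Irf1, Irf3 and Irf4 did not pass the test. These 4 of 7 genes stand against 27.4% of the 13606 genes tested in MG, 1706 higher and 2016 lower. By library, monocyte markers in MG summed to 31.2 CPM with VH and 15.2 with AZD1480, and border macrophage markers to 61.0 and 41.5. Markers of T cells (66.9 and 51.9 CPM), NK cells (13.4 and 2.80) and B cells (26.2 and 18.5) were lower with AZD1480 as well. Markers of dendritic cells (202 and 214 CPM) and neutrophils (395 and 428) were higher with AZD1480. The dendritic and neutrophil sums include Fscn1 and Csf3r, found in 48.1% and 63.5% of all cells and left out of the class gates. The part of these markers in the Irf levels was not tested.

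Irf7 measured 13.6, 12.5, 12.2 and 8.33 CPM in the 4 hashtags of PFF + VH and 2.83, 4.29, 1.46, 4.83 and 3.06 CPM in the 5 of PFF + AZD1480. The groups did not overlap. The mean was 11.7 ± 2.30 CPM (SD, n = 4) with VH and 3.29 ± 1.32 (SD, n = 5) with AZD1480, a log2 difference of -1.80 (SE 0.24, adjusted p = 0.00025). Irf9 measured 44.8, 41.9, 41.3 and 39.6 CPM with VH and 23.4, 27.2, 19.5, 25.5 and 24.9 CPM with AZD1480, again without overlap. Its log2 difference was -0.84 (SE 0.077, adjusted p = 4.19e-05). Both genes kept direction and call in all 21 alternative analyses, from -1.99 to -1.44 for Irf7 and from -0.89 to -0.78 for Irf9. Hashtags of the groups did not overlap for Irf2 and Irf5 either, and the share of all genes without overlap was not counted.

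Irf1 ranged from 208 to 297 CPM with VH and from 170 to 238 CPM with AZD1480, and the groups overlapped. Its log2 difference of -0.30 (SE 0.12, adjusted p = 0.0815) missed the threshold, and it passed in 5 of 21 alternatives, among them cells thinned to equal depth (-0.36, adjusted p = 0.0342). Irf2, its antagonist, lay at 195 to 214 CPM with VH and at 223 to 238 CPM with AZD1480, a log2 difference of 0.13 (SE 0.039, adjusted p = 0.0301). That call was lost in 10 of 21 alternatives, including thinned cells (0.06, adjusted p = 0.520).

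Irf5 measured 155, 177, 158 and 149 CPM with VH and 186, 206, 190, 177 and 191 CPM with AZD1480. Its log2 difference was 0.20 (SE 0.066, adjusted p = 0.0384), and the call was lost in 8 of 21 alternatives, 7 of which leave out 1 hashtag. Irf3, at 34.7 to 37.7 CPM with VH and 36.4 to 52.6 CPM with AZD1480, differed by 0.18 (SE 0.084, adjusted p = 0.130). Irf4, at 7.01 to 8.64 against 8.04 to 9.85 CPM, differed by 0.19 (SE 0.092, adjusted p = 0.140).

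**Figure D2:**
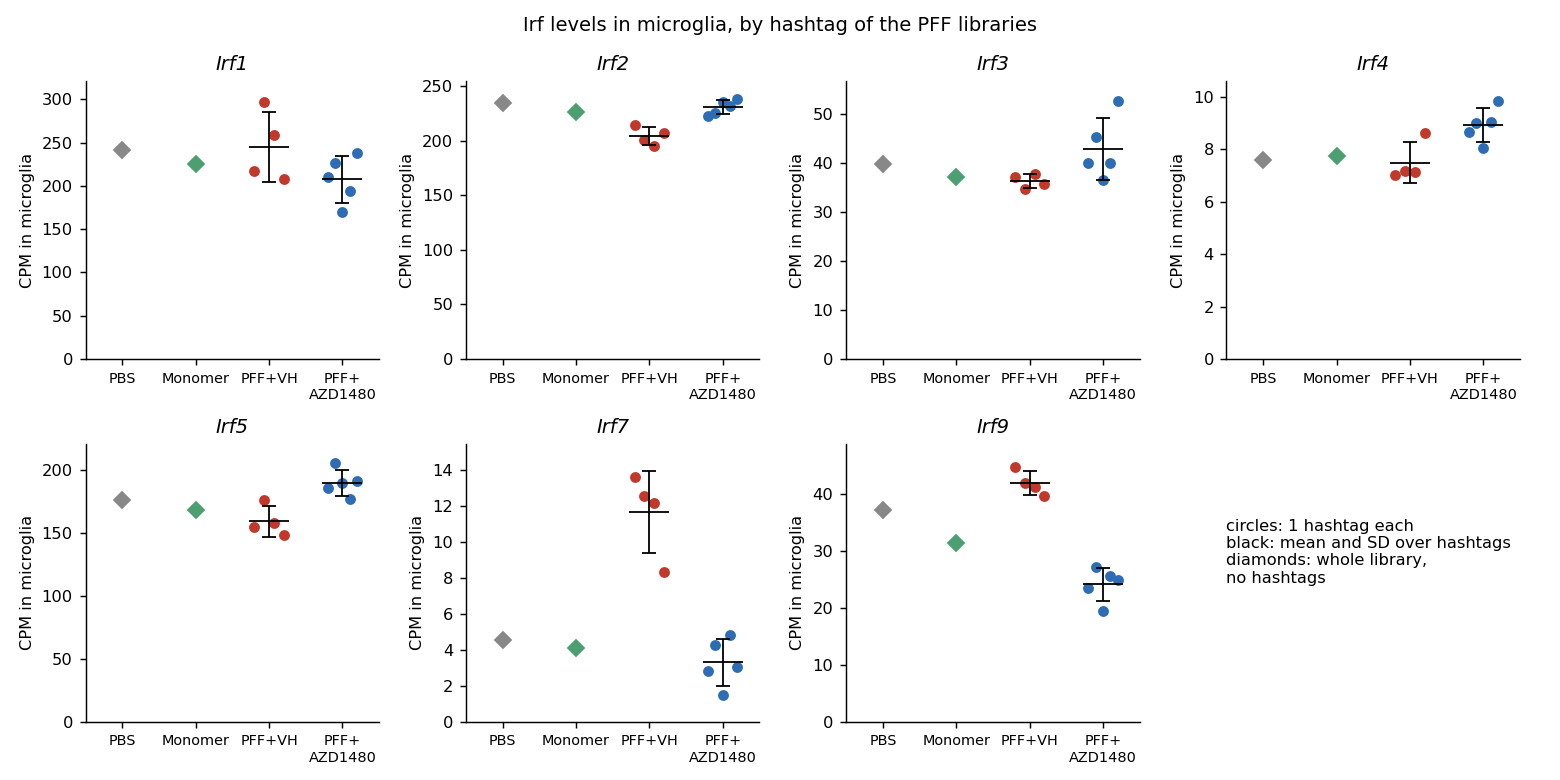
Level of each Irf gene in MG (y axis, CPM) by group, with 1 circle per hashtag, the mean and SD in black, and diamonds for the PBS and monomer libraries, which have no hashtags. The circles of Irf2, Irf5, Irf7 and Irf9 do not overlap between PFF + VH and PFF + AZD1480, and those of Irf1, Irf3 and Irf4 do.

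The PBS and monomer libraries place these values. In MG, Irf7 stood at 4.52 CPM after PBS, 4.08 after monomer, 10.99 after PFF + VH and 3.92 after PFF + AZD1480, and the ratio of PFF + VH to monomer was 2.69 (Poisson interval 2.40 to 3.03). Irf9 stood at 37.2, 31.3, 41.6 and 24.9 CPM in the same order, so that PFF + AZD1480 lay below PBS and monomer as well. Among the 5 Irf genes that averaged 10 CPM or more over the libraries compared, only Irf9 differed by 1.5-fold or more between successive groups, with a ratio of 0.598 of PFF + AZD1480 to PFF + VH, where 2.17% of 8327 genes did. No such ratio was found for monomer over PBS (0.416% of genes) or for PFF + VH over monomer (2.68%). With 1 library a group, these ratios have no replicate check.

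Interferon-state MG were gated as cells with at least 4 UMIs from at least 3 of a set of interferon-stimulated genes that holds no Irf gene. They made up 1.86% of MG after PBS, 2.08% after monomer, 2.86% after PFF + VH and 1.63% after PFF + AZD1480. Depth enters this gate, and each cell was therefore also thinned to 1000 UMIs and gated with lower limits on UMIs and genes. Because the gate differs, the shares of thinned cells cannot be set against those above. They were 0.933%, 1.00%, 2.82% and 0.826% in the same order. By hashtag, thinned, they were 2.93, 2.95, 3.34 and 2.80% with VH and 0.633, 0.875, 0.152, 1.07 and 1.04% with AZD1480, without overlap. The means were 3.01 ± 0.237% (SD, n = 4) and 0.753 ± 0.378% (SD, n = 5), with p = 0.0159 in a two-sided exact permutation test, the smallest p that 4 against 5 hashtags can give.

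Irf7 was concentrated in these cells. They held 51.8% of all Irf7 counts of MG after PBS, 52.1% after monomer, 37.3% after PFF + VH and 43.9% after PFF + AZD1480, while they held 2.34, 2.65, 5.21 and 2.07% of all MG UMIs. For Irf9 the shares were 5.57, 7.63, 7.998 and 5.12%, and for Irf1 3.84, 3.75, 6.78 and 3.25%. Irf2, Irf3 and Irf5 lay near the share of all UMIs, with Irf5 at 2.33% in PBS and 4.72% in PFF + VH.

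Against the other MG of the same 9 hashtags, 3 of the 7 Irf genes passed the test, where 10.7% of 12996 genes did. The gate read other genes of the same cells, so that the test says which Irf genes go with them. Irf7 was 4.18 higher on the log2 scale in the interferon state (SE 0.21, adjusted p = 2.32e-25) and higher in 9 of 9 hashtags, of which 2 held only 15 such cells. Irf9 was 0.92 higher (SE 0.14, adjusted p = 5.71e-07), also in 9 of 9. Irf1 was 0.54 higher (SE 0.080, adjusted p = 3.35e-07), in 5 of 5 hashtags of PFF + AZD1480 and 3 of 4 of PFF + VH. The log2 differences of Irf2 (-0.09), Irf3 (0.10), Irf4 (-0.34) and Irf5 (-0.10) did not pass, with adjusted p from 0.506 to 0.722. By library, monocyte markers summed to 83.5 CPM in interferon-state MG and 28.3 in other MG of PFF + VH, and to 58.6 and 14.2 in PFF + AZD1480. The MG markers summed to 13664 and 16037 CPM, and to 13167 and 16422. Their part in the Irf levels was not tested.

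**Figure D3:**
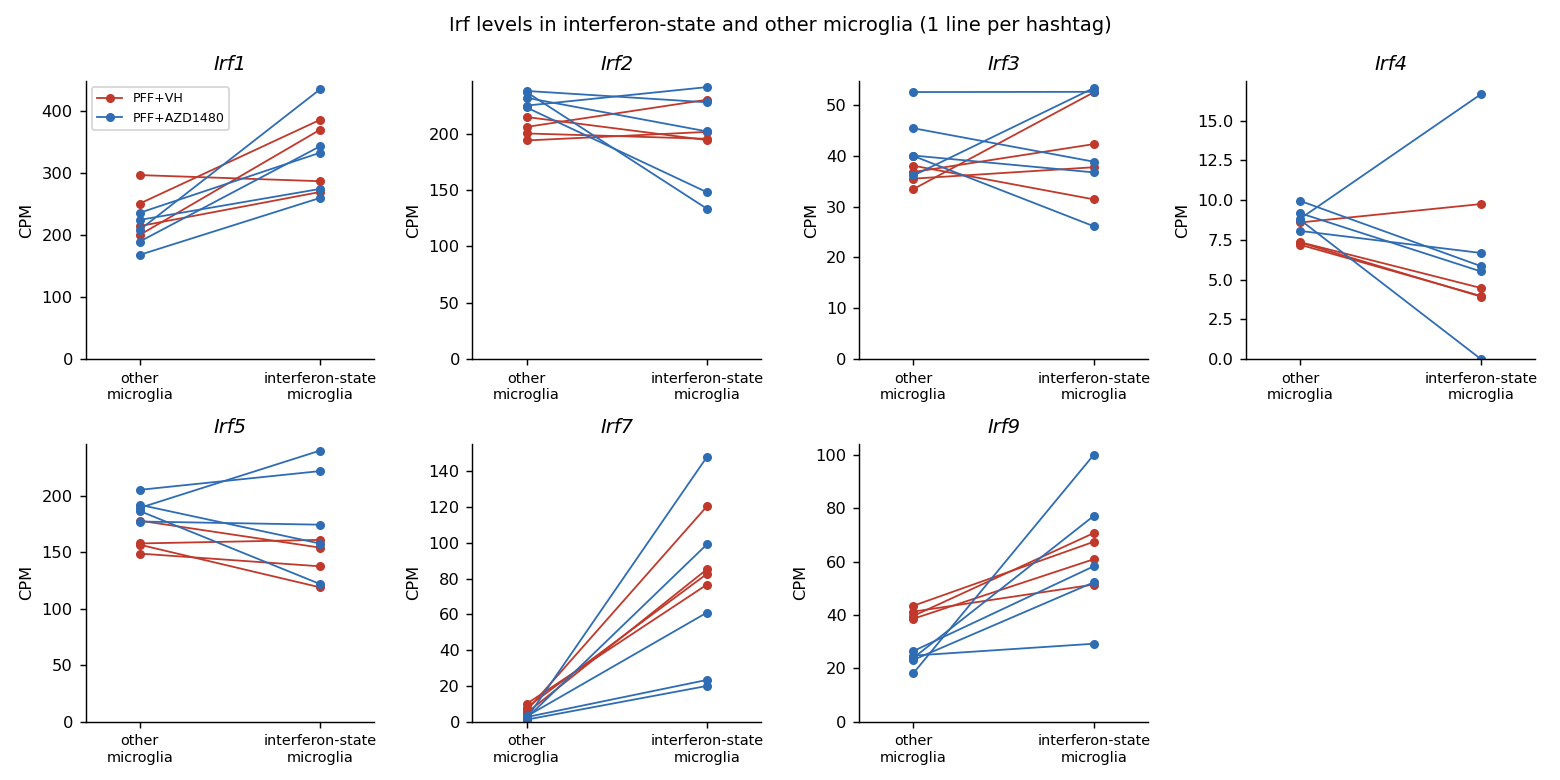
Level of each Irf gene (y axis, CPM) in other MG and in interferon-state MG, joined by 1 line per hashtag of PFF + VH (red) and PFF + AZD1480 (blue). The lines of Irf7 and Irf9 rise in 9 of 9 hashtags, and those of Irf2, Irf3, Irf4 and Irf5 go both ways.

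The difference between AZD1480 and VH was also present outside the interferon state. In other MG, Irf7 measured 9.98, 7.87, 6.16 and 4.85 CPM with VH and 1.77, 2.99, 1.17, 1.92 and 2.59 CPM with AZD1480. Irf9 measured 43.5, 41.3, 39.7 and 38.6 CPM with VH and 23.2, 26.5, 18.2, 23.9 and 24.8 CPM with AZD1480. Neither gene's groups overlapped. Fitted on these cells alone, an analysis added after the data were seen, Irf7 differed by -1.82 (adjusted p = 0.000371) and Irf9 by -0.85 (adjusted p = 5.67e-05). The gate counts UMIs, and cells had a median of 2306 UMIs in PFF + VH against 6616 in PFF + AZD1480, whose part in the values of other MG was not tested. Within the interferon state, Irf7 was at 76.7 to 121 CPM with VH and at 20.02 to 148 CPM with AZD1480, and Irf9 at 51.4 to 70.7 and at 29.2 to 100 CPM, so that these groups overlapped for both genes. The lowest and highest Irf7 values with AZD1480 rest on 3 and 17 counts, each from 15 cells, and the lowest of Irf9 on 5 counts. So few counts cannot show whether the groups differ within the state.

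Sequencing depth per cell differed, and the same comparison was therefore made on cells thinned to 1000 UMIs, also added after the data were seen. Irf7 differed by -1.44 (adjusted p = 0.0014) and Irf9 by -0.86 (adjusted p = 9.16e-05). As shares of thinned MG with at least 1 UMI, Irf7 was found in 0.375 ± 0.203% of cells with AZD1480 and 1.10 ± 0.074% with VH (SD, n = 5 and 4, two-sided exact permutation p = 0.0159). Irf9 was found in 2.43 ± 0.347% and 4.33 ± 0.434% (exact permutation p = 0.0159). The shares of 4 genes were higher with AZD1480. Irf5 was found in 16.8% against 14.2% of cells (exact permutation p = 0.0159), Irf2 in 19.1% against 17.7%, Irf3 in 4.06% against 3.45% and Irf4 in 1.064% against 0.657% (exact permutation p = 0.0317 for each of the last 3). Irf1 was at 15.1% against 18.2% with overlapping groups (exact permutation p = 0.0635). The p-values of these 7 tests are not adjusted, and no other genes were tested in this way. With cells thinned to 2000 UMIs, Irf3 (7.70% against 7.30%, exact permutation p = 0.444) and Irf4 (1.73% against 1.49%, exact permutation p = 0.254) were no longer under 0.05 and Irf1 was (23.9% against 29.99%, exact permutation p = 0.0159). Without thinning, and with cells under 1000 UMIs kept, Irf9 was found in 13.5% of cells with AZD1480 and 13.04% with VH.

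In MM, none of the 6 Irf genes tested passed (edgeR, 4 hashtags against 4), where 1.18% of 4740 genes did, and none was under an unadjusted p of 0.05. DESeq2 gave an adjusted p for Irf1, Irf2 and Irf5 alone and called none of them. Irf3 had too few counts for edgeR's filter, and a PFF + AZD1480 hashtag with 16 MM was left out. Irf7 measured 50.1, 35.0, 39.1 and 37.2 CPM with VH and 9.35, 22.8, 61.3 and 18.1 CPM in the hashtags of PFF + AZD1480 that entered. The highest of these came from a single hashtag and lies above every value with VH, and the log2 difference was -0.39 (SE 0.43, adjusted p = 0.766). In 17 alternative analyses this difference ran from -1.29 to 0.14. Irf9, at 68.0, 52.5, 82.2 and 33.8 CPM with VH and 24.9, 32.5, 56.6 and 36.2 CPM with AZD1480, differed by -0.61 (SE 0.33, adjusted p = 0.475). Irf5, at 85.9, 125, 160 and 81.2 against 147, 146, 177 and 163 CPM, differed by 0.46 (SE 0.22, adjusted p = 0.411). Irf1 (-0.20), Irf2 (-0.11) and Irf4 (-0.17) had log2 differences under their standard errors. The MG markers summed to 4975 CPM in the MM of PFF + VH and 3895 in those of PFF + AZD1480, and their part in these values was not tested.

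Whether the treatment difference itself differed between MM and MG was tested as an interaction in the same fit of both classes. None of the 7 genes passed in edgeR, the one tool run on it, where 1.05% of 13386 genes did, and 1 was under an unadjusted p of 0.05. That gene was Irf7, at an unadjusted p of 0.0286 (edgeR log2 difference of differences 1.09, SE 0.50, adjusted p = 0.535). It dropped to 0.45 without the hashtag of 61.3 CPM. The difference of Irf7 between AZD1480 and VH in MM is therefore not shown to differ from that in MG.

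**Figure D4:**
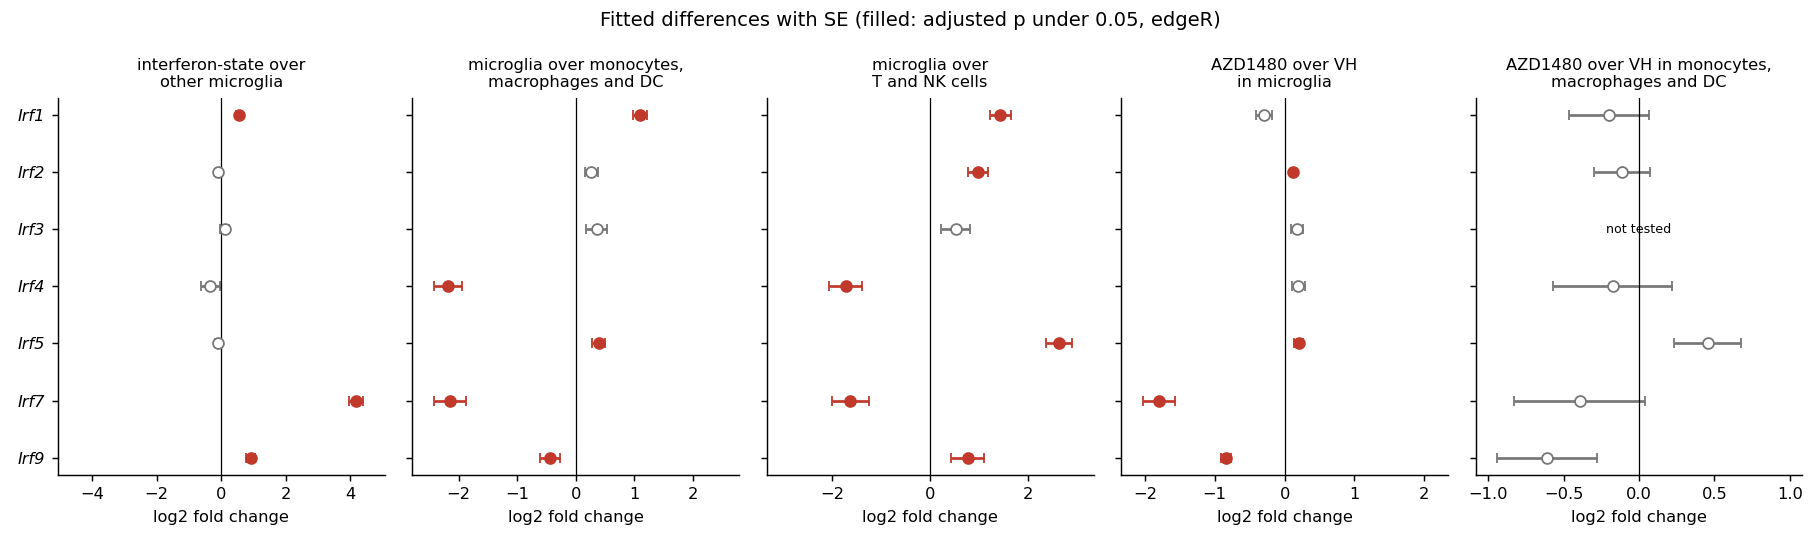
Log2 difference of each Irf gene with its standard error (x axis) in the fitted comparisons, filled where the adjusted p is under 0.05. Between AZD1480 and VH, Irf7 (-1.80) and Irf9 (-0.84) have the largest differences in MG, and no gene passes in MM.

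In T and NK cells, no test between AZD1480 and VH was run, because hashtags of PFF + AZD1480 held as few as 3 cells. By library, Irf4 in T and NK cells was at 21.6 CPM after PBS, 26.0 after monomer, 15.8 after PFF + VH and 58.9 after PFF + AZD1480, and the last step is a ratio of 3.74 (Poisson interval 1.98 to 7.57). It rests on 44 counts in 18 of 84 T cells against 13 counts in 6 of 119. The NK cells, 29 of 113 cells in PFF + AZD1480 and 140 of 259 in PFF + VH, held no Irf4 count, and in T cells alone the levels were 78.7 and 35.1 CPM, a ratio of 2.24 (1.19 to 4.54). A single cell held 10 of the 44 counts, and another 4 of the 13, without which these levels are 61.3 and 24.8 CPM. The T cells had medians of 6197.5 UMIs in PFF + AZD1480 and 2590 in PFF + VH, and their MG markers summed to 2602 and 4838 CPM. What depth and these markers add to the Irf4 values was not tested. Ratios of 1.5-fold or more were found in 27.8% of all genes in the step from PFF + VH to PFF + AZD1480. Irf5 had a ratio of 0.648 (0.388 to 1.07) in the same step. For monomer over PBS, the ratio was 0.593 (0.391 to 0.885) for Irf9 and 1.63 (0.831 to 3.24) for Irf5, where 15.5% of genes were at 1.5-fold or more. For PFF + VH over monomer it was 2.70 (1.61 to 4.67) for Irf5 and 0.606 (0.289 to 1.20) for Irf4, where 26.6% did. The intervals of the Irf5 ratios 0.648 and 1.63 and of the Irf4 ratio 0.606 include 1, and in T cells alone Irf4 was at 35.1 CPM after PFF + VH and 50.6 after monomer, less than 1.5-fold apart. In MM, Irf4 had a ratio of 1.74 (1.13 to 2.73) of PFF + VH to monomer, where 13.7% of genes were at 1.5-fold or more. In border macrophages alone, Irf4 was at 23.2 CPM after PFF + VH and 16.8 after monomer, less than 1.5-fold apart. In monocytes it was at 53.7 and 16.4 CPM, from 21 and 5 counts. None of the 7 Irf genes reached 1.5-fold in MM for monomer over PBS (10.9% of genes) or for PFF + AZD1480 over PFF + VH (13.4%).

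The genes that Irf factors act on, and those that act on them, were counted in the same MG comparison of AZD1480 with VH. Of 18 interferon-stimulated targets, 16 fell and none rose, with a list median of -1.96 against -0.00063 for all genes. Ifi44 (-4.41), Rsad2, an antiviral enzyme (-2.72), and Ifit3b (-2.51) had the largest differences. Rsad2 was at 9.86 ± 1.72 CPM (SD, n = 4) with VH and 1.43 ± 0.931 CPM (SD, n = 5) with AZD1480. Cxcl10, a chemokine that draws T cells, was at 110 ± 23.7 and 83.3 ± 15.4 CPM and did not pass, and neither did Ifi204.

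Of 10 Irf1 targets of antigen presentation, 7 fell and none rose, with a list median of -0.52. They were led by Nlrc5, the activator of MHC class I genes (-0.85), Psmb9, a subunit of the immunoproteasome (-0.62), and Tap1, a peptide transporter (-0.56). Psmb9 was at 63.8 ± 2.45 CPM (SD, n = 4) with VH and 42.7 ± 3.58 CPM (SD, n = 5) with AZD1480, although Irf1 itself did not pass. Among the receptors, kinases and STATs, Stat2, a partner of Irf9, fell by 0.72 on the log2 scale and Ifnar2, a chain of the type I interferon receptor, fell by 0.43. Ifngr1, a chain of the interferon-γ receptor (0.26), Tyk2, a kinase of the JAK family (0.17), and Ifnar1 (0.15) rose.

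Of the sensors, adaptors and kinases upstream of Irf3, Irf5 and Irf7, 6 of 18 rose and 4 fell. The largest differences were in Ddx58, which encodes the RNA sensor RIG-I (-0.60), Cgas, the DNA sensor (-0.47), and Tlr3, the receptor for double-stranded RNA (-0.41). Of the partners and corepressors, Irf2bp2, which binds Irf2 (0.33), and Ikzf1 (0.29) rose among 7, and Socs1 (-0.81) and Socs3 (-0.35), feedback inhibitors of JAK kinases, fell among 5 negative regulators. Irf8 was at 381 ± 18.6 CPM (SD, n = 5) with AZD1480 and 340 ± 15.1 CPM (SD, n = 4) with VH and did not pass (log2 difference 0.11). Of 13 interferon genes only Ifnb1 had enough counts in MG, at about 1 CPM, and did not pass. These lists are read against 27.4% of all genes called in this comparison.

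**Figure D5:**
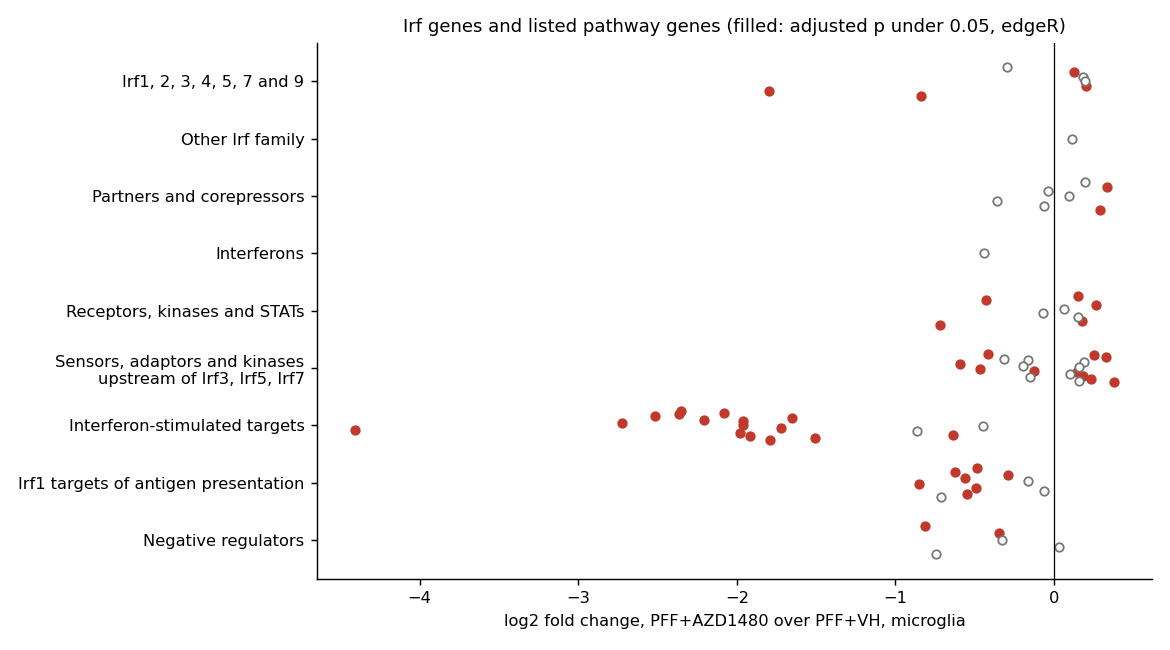
Log2 difference between AZD1480 and VH in MG (x axis) of each reported gene of the lists around the Irf genes (y axis), filled where the adjusted p is under 0.05. The interferon-stimulated targets lie lowest, with 16 of 18 past the threshold and a median of -1.96.

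In interferon-state MG, targets that the gate did not use were higher as well, among them Ifitm3 (3.66), Oas1a (3.07) and Xaf1 (2.48), and 8 of 10 Irf1 targets of antigen presentation rose, led by Gbp2 (2.18), Nlrc5 (2.15) and Tap1 (1.23), where 10.7% of all genes were called. Stat2 (2.16) rose with Irf9, and of the sensors Ifih1, which encodes MDA5 (2.19), and Ddx58 (1.87) rose. Ifnb1, the gene of interferon-β, was 3.11 higher (SE 0.52, adjusted p = 6.84e-06). Its levels were 7.82 ± 9.56 CPM (SD, n = 4) in PFF + VH and 17.4 ± 34.3 CPM (SD, n = 5) in PFF + AZD1480, with several hashtags at 0.

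In MM, Ifi27l2a (-1.31) fell and Cxcl10 (2.12) rose among 9 interferon-stimulated targets tested, and B2m, the light chain of MHC class I, fell (-0.56), where 1.18% of all genes were called.

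The genes whose levels followed each Irf gene most closely over 27 class-by-library sums were ranked among 8928 genes by Pearson's r of log2(CPM + 10), as a description. The sums share 4 libraries and differ in depth. For Irf7 they were St3gal4 (r = 0.81), Tmpo (0.79) and Isg15 (0.79), and for Irf9 Sertad1 (0.76), Rraga (0.69) and Ogfr (0.65). Irf1 went with Gbp5 (0.84), an interferon-induced GTPase, Socs3 (0.79) and Bcl6 (0.75), and Irf2 with Grb2 (0.80), March1 (0.77) and Slc25a37 (0.77). Irf4 was closest to Btla (0.91), an inhibitory receptor of lymphocytes, Pgap1 (0.89) and Dipk1a (0.89), Irf5 to Pld4 (0.94), Ppfia4 (0.94) and Erp29 (0.94), and Irf3 to Zfp950 (0.88), Atp9b (0.87) and Gclc (0.82).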

How the data were processed

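CD45+ cells were profiled with the 10x Genomics Single Cell 3′ v3.1 kit. The deposited matrices give UMI counts, made by the authors from reads mapped to mm10 in Cell Ranger (7.0.1 by the matrix headers) and not normalized. The study's limits on cells were kept (500 to 15000 UMIs, 250 to 5000 genes, at most 10% mitochondrial counts). Classes were gated on listed markers, with thresholds set after their distributions were seen. Doublets were not removed in the main analysis except as cells with several hashtags. Members and gene lists were chosen with earlier results of these data known.

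Hashtags were called with HTODemux (Seurat 5.3.0). Of PFF + VH microglia, 12004 of 32380 had no hashtag and 3482 several, against 621 and 1404 of 11871 in PFF + AZD1480, and these entered library levels only. Counts were summed per class and hashtag and edgeR 4.0.16 was used for quasi-likelihood tests (TMM, filterByExpr, p-values adjusted over all genes by Benjamini-Hochberg, threshold 0.05). The comparison of AZD1480 with VH and the interaction used hashtags with at least 20 cells of the class. The classes and states of a hashtag were compared with the hashtag as block over all 9 hashtags, without this limit. P-values measure the spread between hashtags, which may be technical. Levels (CPM) and their 95% Poisson intervals, and exact binomial shares of cells thinned to 1000 UMIs, were computed from the counts and cover counting error only. All Irf genes are described, the 3 most alike by Pearson's r, and of each list the 3 called genes with the largest log2 change, and other genes named were chosen after their values were seen. A listed gene and the counts of its list are not reported here. The edgeR script was tested on simulated data. Alternatives were MULTIseqDemux, hashtag values centred within cells, at least 1000 UMIs per cell, a stricter marker gate, doublets left out (highest Scrublet scores, scanpy 1.11.5, at 0.8% per 1000 cells, as the automatic threshold called 0), RLE and TMM scaling, no filter on low counts, DESeq2 1.42.0, a replicate block, Gm42418 left out, other thinning depths and each hashtag left out. Chosen after seeing the data were MG outside the interferon state, cells thinned to 1000 UMIs before the MG test, the MM hashtag of 16 cells kept, the Scrublet threshold, classes and states compared over hashtags with at least 20 cells of both, Irf4 in T cells without NK cells, and leaving out hashtags in the interaction and the shares.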

Additional observations from a re-analysis of the deposited data

Results flagged for a closer look

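In 6 of 77 groups of hashtags examined, the gap between 1 hashtag and the nearest other exceeded Dixon's 95% critical share of the group's range, and chance flags about 1 group in 20. All 6 are hashtags of PFF + VH. Irf3 in MM was at 43.0 CPM in hashtag 1, against 25.02 in the nearest. Irf4 in MG was at 8.64 CPM in hashtag 4 against 7.17, and the same hashtag was highest for Irf4 in interferon-state MG (9.75 against 4.47 CPM) and in other MG (8.59 against 7.35 CPM), which share its cells with the first value. Among thinned MG, Irf3 was found in 3.90% of cells of hashtag 3 against 3.34%, and Irf7 in 1.21% of cells of hashtag 1 against 1.07%.

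Around the Irf genes, the difference between AZD1480 and VH differed between MM and MG for 5 of 69 listed genes in the interaction test of edgeR (adjusted p under 0.05), where 1.05% of 13386 genes passed. The log2 difference in MM minus that in MG was 2.54 for Cxcl10, 0.73 for Bst2, 0.66 for Ifi27l2a, 0.83 for Ifitm3 and 0.77 for Socs3.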

How the results depend on the processing

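Numbers of genes called between AZD1480 and VH kept within 1.5 times of 3722 in MG under every alternative but thinned cells, which gave 1640. In MM, where 56 genes were called, the number was 17 with MULTIseqDemux, 35 with a stricter marker gate, 11 without doublets, 204 without a filter on low counts and 7 to 54 with 1 hashtag left out. The interaction called 141 genes, and 89 to 140 with 1 hashtag left out, lowest without PFF + AZD1480 hashtag 4. The interferon state called 1390 genes, 900 with MULTIseqDemux and 933 with the lower gate applied to thinned cells. Of the 57 library ratios of Irf genes, 8 were past 1.5-fold, and 16 in thinned cells. Of all genes in the main analysis, 0.416 to 2.68% were past it in MG, 10.9 to 13.7% in MM and 15.5 to 27.8% in T and NK cells. Of the 7 shares, 6 had an unadjusted exact permutation p under 0.05. With 1 hashtag left out, 3 to 4 did, fewest without PFF + AZD1480 hashtag 4 or PFF + VH hashtag 2. With so few hashtags, only groups without overlap can reach a p under 0.05, so that the lower counts follow in part from fewer arrangements. The permutation test was not run on other genes, so that no share of all genes stands beside these counts. Signs turned only for values that had not passed their test, apart from unthinned shares. Between AZD1480 and VH in MM, Irf2 was 0.055 with MULTIseqDemux, Irf7 0.14 with hashtag values centred within cells and Irf4 0.36 with the replicate block, and with 1 hashtag left out Irf1 ranged from -0.49 to 0.022 and Irf4 from -0.44 to 0.14. Over all alternatives in MM, Irf7 ran from -1.29 to 0.14 and Irf1 from -0.81 to 0.022. In the interaction, with 1 hashtag left out, Irf1 ranged from -0.33 to 0.25, Irf3 from -0.091 to 0.25 and Irf9 from -0.20 to 0.32. In the interferon state Irf2 was 9.15e-06 with the lower gate on thinned cells, Irf4 0.054 with MULTIseqDemux and Irf3 -0.020 to 0.16 with 1 hashtag left out. Unthinned shares of MG with a UMI turned to 7.72 percentage points for Irf1 and 0.411 for Irf9, the higher value being that of AZD1480, whose cells had more UMIs. Causes were not tested.

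Hashtag numbers of the libraries were not taken to pair the samples, and the few correlations below cannot decide whether they do. Deviations of equal numbers correlated at -0.11, 0.28, 0.07 and 0.28 in MG and -0.03, 0.10, 0.09 and -0.09 in MM. In MG, hashtags 2 and 4 of PFF + VH correlated best with their own number, and in MM hashtags 2 and 3, while the others did not. With the number as replicate block, 3299 genes were called in MG and 42 in MM. Where classes or states of the same hashtags were compared, leaving out the block gave 4559 genes instead of 5044 for MG against MM, 5295 instead of 5894 for MG against T and NK cells, and 1031 instead of 1390 for the interferon state. It also ended the calls of Irf5 and Irf9 for MG against MM and of Irf7 and Irf9 for MG against T and NK cells.

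With only hashtags of at least 20 cells of both classes or states, the same Irf genes passed for MG against MM (8 hashtags, 4939 genes called), MG against T and NK cells (5, 4695) and the interferon state (7, 1324). Not run were AZD1480 against VH in T and NK cells and their interaction, because hashtags held under 20 of these cells. Depth per cell is confounded with the PFF + VH library, while PBS and monomer, without hashtags, offer no replicate.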

Other observations

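Outside the comparisons above, Irf levels in rarer classes stood apart between libraries, with no test. Ranges in brackets are 95% Poisson intervals. In monocytes, Irf1 measured 206 CPM (160 to 261) in PBS, 230 (179 to 290) in monomer, 110 (79.6 to 148) in PFF + VH and 71.3 (42.9 to 111) in PFF + AZD1480, from 37 to 98 cells a library. Of the 70 counts in monomer, 26 came from 1 cell, without which the level is 149 CPM. Irf4 in the same monocytes went the other way, at 23.9, 16.4, 53.7 and 71.3 CPM from 8, 5, 21 and 19 counts, of which 5, 3, 5 and 6 came from 1 cell. Dendritic cells had 75.6 CPM of Irf4, and in the same order of libraries their markers summed to 114, 118, 197 and 267 CPM in these monocytes. The dendritic list includes Fscn1, found in 48.1% of all cells, and summed to 202 to 235 CPM in MG, so that it is not specific to dendritic cells. The MG markers summed to 1473, 1874, 2907 and 2350 CPM in these monocytes. The part of both lists in the Irf levels was not tested. In neutrophils, Irf7 measured 101 CPM (66.1 to 148) in PBS, 55.6 (18.1 to 130) in monomer, 15.2 (3.13 to 44.4) in PFF + VH and 5.21 (0.631 to 18.8) in PFF + AZD1480, from 19 to 70 cells. The MG markers in these neutrophils summed to 860 CPM in PBS and 957 in monomer but 5957 in PFF + VH and 2643 in PFF + AZD1480, and their part in the Irf7 levels was not tested. In border macrophages, which have the most cells among these classes, Irf7 stayed between 21.5 and 28.0 CPM, and Irf9 measured 68.9, 51.9, 51.2 and 35.2 CPM in the same order of libraries.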
